A study of Mus musculus with 12 samples.

Results

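The genes described here encode RNA-binding regulators of local translation. They are 9 genes, taken by symbol: Fmr1, Fxr1 and Fxr2 of the fragile X family, the Pumilio repressor Pum2, nucleolin (Ncl), the decay factor Khsrp, and the neuronal Hu genes Elavl2, Elavl3 and Elavl4. All 9 stood in both deposited count tables, among 9112 genes listed for the cultures labelled Cre+ and 14177 for those labelled Cre-. All 9 also passed the filter on low values in both genotypes, a mean FPKM (fragments scaled by transcript length and sequencing depth) above 1, as did 8947 and 11526 genes.

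RNA was sequenced from dorsal root ganglion (DRG) neurons of adult male mice, pooled from all ganglia, cleaned on a 20% Percoll cushion and kept for 24 h in F12 medium with serum. Every mouse, the controls included, was homozygous for the RiboTag allele (Rpl22HA/HA), in which Cre recombinase adds an HA tag to ribosomal protein Rpl22. Mice labelled Cre+ also carried Runx3-Cre, whose driver Runx3 is a transcription factor of proprioceptive sensory neurons, and mice labelled Cre- carried no Cre, so that no tagged ribosomes are intended there. Each sample pooled 5 mice, whose age the labels give as 3 to 6 months and the methods as younger, and for each genotype there were 3 HA pull-downs and 3 inputs taken from 10% of the lysate, 12 libraries in all. The labels do not say whether a pull-down and an input of the same number came from the same lysate, so the p-values below measure the spread between these libraries.

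Each library held between 8886308 and 18633365 counts on the genes of its table. The driver did not follow the labels: Runx3, in normalized counts, stood at 22.8, 2.07 and 11.1 where pull-downs were labelled Cre+ and at 20.8, 36.0 and 51.4 where they were labelled Cre-, so the groups are called by their labels throughout. These ranges overlapped, and the difference in Runx3 enrichment, -1.93 on the log2 scale (Cre+ minus Cre-), was not called (edgeR adjusted p = 0.298). All 6 proprioceptor markers (Runx3, Pvalb, Etv1, Ntrk3, Spp1 and Whrn) were called higher in the Cre- pull-downs, where they summed to 1251 to 1549 against 210 to 293 in the inputs. In Cre+ 1 of the 5 listed there was, Ntrk3, and those 5 summed to 351 to 527 in the pull-downs against 179 to 242 in the inputs, with 4 of 5 log2 fold changes above 0. Etv1 and Spp1 were called for the difference, at -2.41 and -3.59 on the log2 scale (edgeR adjusted p = 0.0189 and 0.00295). In the Cre+ table the pull-down columns carry names that match, punctuation aside, the titles given to Cre- pull-downs, and whether the labels are crossed was not tested. Labels crossed in both fractions would turn the sign of every Cre+ minus Cre- value below, and labels crossed in the pull-downs alone would also change each comparison of pull-down with input. The 8 neuron markers were all listed and summed to 48430 to 56030 normalized counts in the Cre- pull-downs, against 20430 to 28600 in the 9 other libraries. Most of that sum was Nefl, Nefm and Snap25, at means of 15980, 17200 and 15660 in the Cre- pull-downs, while Rbfox3, Tubb3 and Prph of the same list had log2 fold changes of -0.76, -0.35 and -0.23 there (edgeR adjusted p = 0.00583, 0.251 and 0.353). The Schwann and satellite glia markers Pmp22, Mbp, Sox10, S100b, Apoe and Glul, 6 of the list, summed to 1854 to 2716 in the Cre+ pull-downs and 2905 to 3997 in the inputs. In Cre- they summed to 1651 to 2022 in pull-downs and 3262 to 4642 in inputs, mostly through Pmp22, whose mean was 887 against 2910. S100b of these went the other way in Cre-, at 517 against 320 (log2 fold change 0.69, edgeR adjusted p = 0.0143, under the 2-fold limit), and Glul stood at 0.02. The 3 endothelial markers listed (Pecam1, Cdh5 and Kdr) summed to 96.6 to 381 in the Cre+ pull-downs, all above the 46.1 to 82.3 of the inputs, with 0 of 3 called and Pecam1 at 97.8 ± 137 (SD, n = 3). In Cre- the endothelial sums overlapped, as did the fibroblast and macrophage sums in both genotypes, where 1 marker was called, Col1a1, lower in Cre- at -1.34 (edgeR adjusted p = 0.0387). The part of these cell types in the values of the 9 genes was not tested. The Cre+ pull-downs stood apart from the other groups, because pairs of them correlated at 0.685 to 0.831 over log2 normalized counts and pairs within every other group at 0.913 to 0.975. Fewer cells of a type and less RNA per cell cannot be told apart in such bulk samples.

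Local translation lets a neuron make proteins far from its cell body, from mRNAs that travel in granules and are held silent until they are needed. RNA-binding proteins set which mRNAs travel, how long they last and when ribosomes may read them. FMRP and its relatives stall or repress translation, Pumilio proteins repress mRNAs through an 8-base element in the 3' untranslated region (3' UTR), Hu proteins stabilize mRNAs with AU-rich elements, and KHSRP speeds the decay of such mRNAs. Because these regulators are themselves made from mRNAs, a pull-down of tagged ribosomes can report whether each regulator's own mRNA was enriched over the lysate, relative to other mRNAs. The ratio has that meaning only where ribosomes are tagged, which is not intended without Cre.

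Several of these mRNAs carry in their own 3' UTR the letters that the group's proteins are known to read, and 1 such stretch per motif is shown here for the genes that the results below turn on. The Pumilio letters TGTANATA and the AU-rich letters TATTTAT were searched on the sense strand of 1 GENCODE M21 transcript per gene (build GRCm38), and the motifs can share bases at their ends. Capitals mark the match, flanked by 10 bases on either side, and each stretch is the earliest match in that 3' UTR, read 5' to 3' on the gene's strand.

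Pum2 Pumilio letters, chr12:8750155-8750182, plus strand: tttatagagaTGTATATAgaattatagt
Fmr1 Pumilio letters, chrX:68717289-68717316, plus strand: tttaaaatacTGTAGATAattaaccaag
Elavl2 Pumilio letters, chr4:91251943-91251970, minus strand: ctttgtgtgaTGTAAATAagaccttgtg
Elavl4 Pumilio letters, chr4:110204848-110204875, minus strand: tgtgtgtatgTGTACATAtaatataaat
Ncl Pumilio letters, chr1:86346021-86346048, minus strand: gaccttggttTGTACATAtaattaggtg
Pum2 AU-rich letters, chr12:8749817-8749843, plus strand: aaagcaaaacTATTTATtgactttctt
Fmr1 AU-rich letters, chrX:68717205-68717231, plus strand: gatttctagtTATTTATtctgggaatg
Elavl2 AU-rich letters, chr4:91252700-91252726, minus strand: tttacattttTATTTATgaagttacaa
Elavl3 AU-rich letters, chr9:22016026-22016052, minus strand: tgtgtttaacTATTTATtctccttgtt
Elavl4 AU-rich letters, chr4:110204986-110205012, minus strand: ttgaaacactTATTTATttaattgcag

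The Pumilio letters were found in 5 of the 9 3' UTRs (Fmr1, Pum2, Elavl2, Elavl4 and Ncl), against 30.3% of the genes tested in Cre+ that had a 3' UTR and 27.5% in Cre-. The AU-rich letters were found in 6 of 9 (Fmr1, Fxr2, Pum2, Elavl2, Elavl3 and Elavl4), against 33.1% and 30.5%. Elavl2 held 3 matches of each motif, the most Pumilio matches among the 9 genes. The 3' UTRs of the 9 genes are long, with a median of 2477 bases against 1118 bases over all 10811 genes tested in either genotype that had a transcript, from 255 in Fxr1 to 5901 in Ncl. A longer 3' UTR holds more chance matches, and a match of letters is no measured binding site.

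Set per length, Fxr1 had the highest mean of the 9 mRNAs in each of the 4 groups and Fmr1 and Fxr2 the lowest, though not all of these ranges were separate. The authors' mean over the 6 libraries of a table was 90.8 FPKM for Fxr1 in Cre+ and 95.1 in Cre-, 56.9 and 54.2 for Elavl3, 52.6 and 55.4 for Ncl, and 43.2 and 53.9 for Elavl2. It was 31.7 and 35.8 FPKM for Elavl4, 22.8 and 21.4 for Pum2, 16.0 and 15.7 for Khsrp, 11.7 and 12.6 for Fxr2, and 11.4 and 11.1 for Fmr1. When these means were split over the libraries in proportion to the normalized counts, Fxr1 in the Cre- inputs reached 94.3 ± 11.4 FPKM (SD, n = 3), and its lowest library lay above the highest of Ncl, the next gene. In the same inputs Ncl, Elavl3 and Elavl2 overlapped as neighbours in the order, as did Khsrp, Fmr1 and Fxr2 at the low end, while Elavl2, Elavl4 and Pum2 were each separate from the next gene. In the pull-downs the top of the order was not separate: in Cre+ Fxr1 spanned 71.7 to 84.2 FPKM and Elavl3 55.0 to 107, and in Cre- Fxr1 spanned 89.3 to 101 and Elavl2 36.9 to 95.2.

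The first question was whether any of these mRNAs was enriched on or depleted from the pulled-down ribosomes of cultures labelled Cre+. With edgeR's quasi-likelihood test, called at a Benjamini-Hochberg FDR below 0.1 and a 2-fold change, 0 of the 9 genes were called in either direction, where 7.67% of the 8947 genes tested were called, 5.17% higher and 2.49% lower in the pull-down. At an unadjusted p below 0.05 there was 1 of 9, Elavl3, beside 23.7% of all genes. The log2 fold changes of the 9 genes ran from -0.60 (Elavl2) to 0.98 (Elavl3), with a median of -0.17 against 0.08 over all genes tested. DESeq2 called 1 of the 9, Elavl3, among 1671 of all 8947 genes. EdgeR's exact test called 0 of the 9, and 1243 of all genes. The background itself rests on every input: without any 1 of the 3 Cre+ inputs, the number of genes called over the whole table was 0.

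In cultures labelled Cre- the count of genes called was again 0 of 9, where 12% of 11526 genes were called, 6.06% higher and 5.93% lower. Elavl2 and Elavl4 were under an unadjusted p of 0.05, 2 of 9 beside 31.1% of all genes. Both DESeq2 and the exact test called 0 of 9, beside 1481 and 1513 of all 11526 genes. The log2 fold changes ran from -0.24 (Fmr1) to 0.65 (Elavl2), with a median of 0.21 against -0.04 over all genes. The standard errors were smaller here, 0.14 to 0.28 against 0.27 to 0.69 in Cre+.

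**Figure D1:**
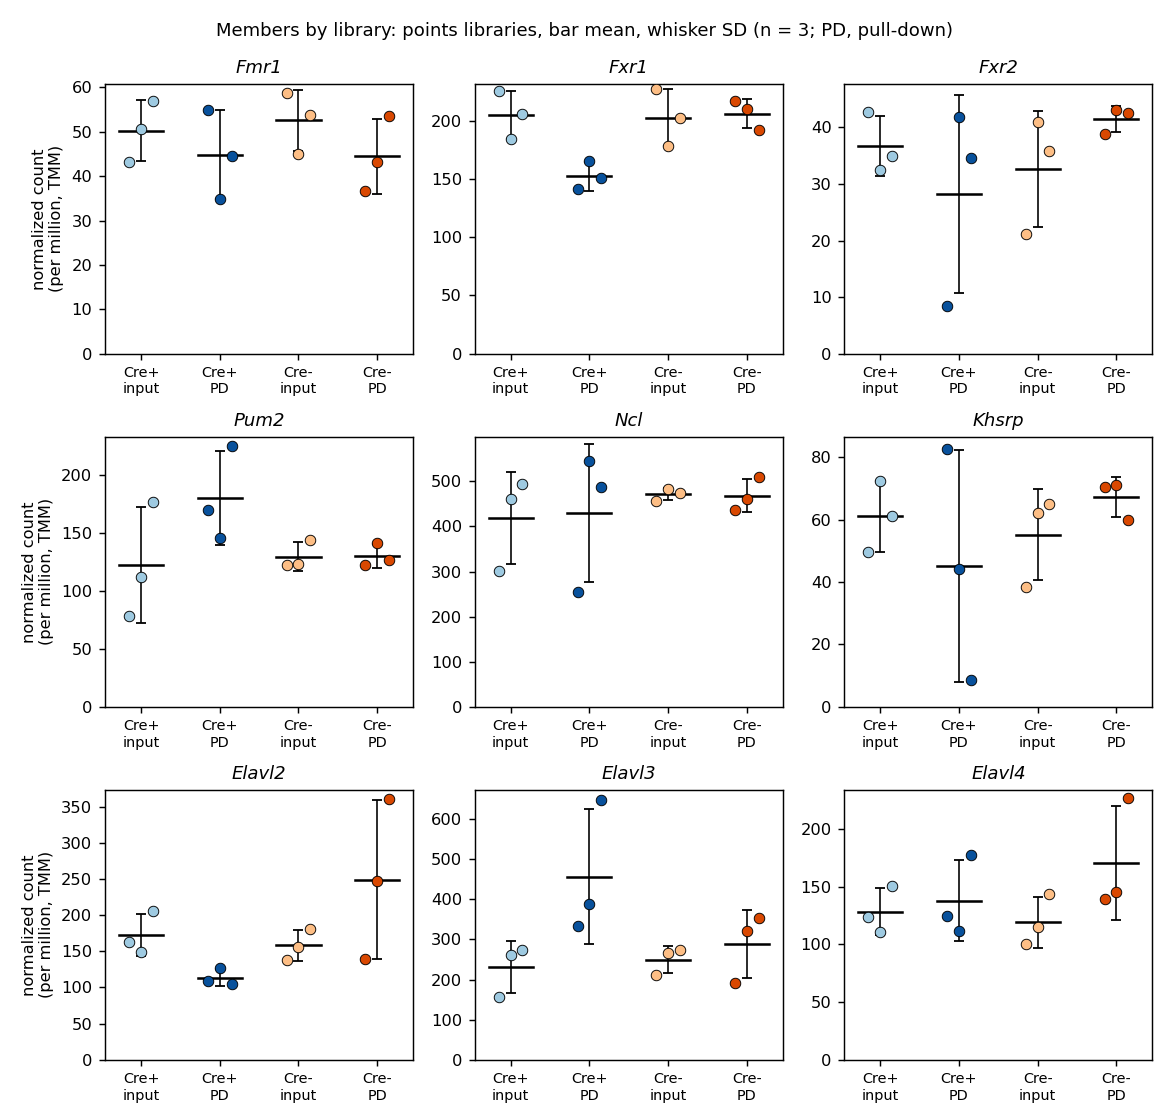
Normalized counts (counts scaled to 1000000 after TMM, linear axis from 0) of the 9 genes in each of the 12 libraries, as points by group with the mean (bar) and SD (whisker, n = 3). The Cre+ pull-downs of Khsrp and Fxr2 each hold 1 library near 8.4, and the Cre+ pull-downs of Elavl3 lie above all its inputs.

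**Figure D2:**
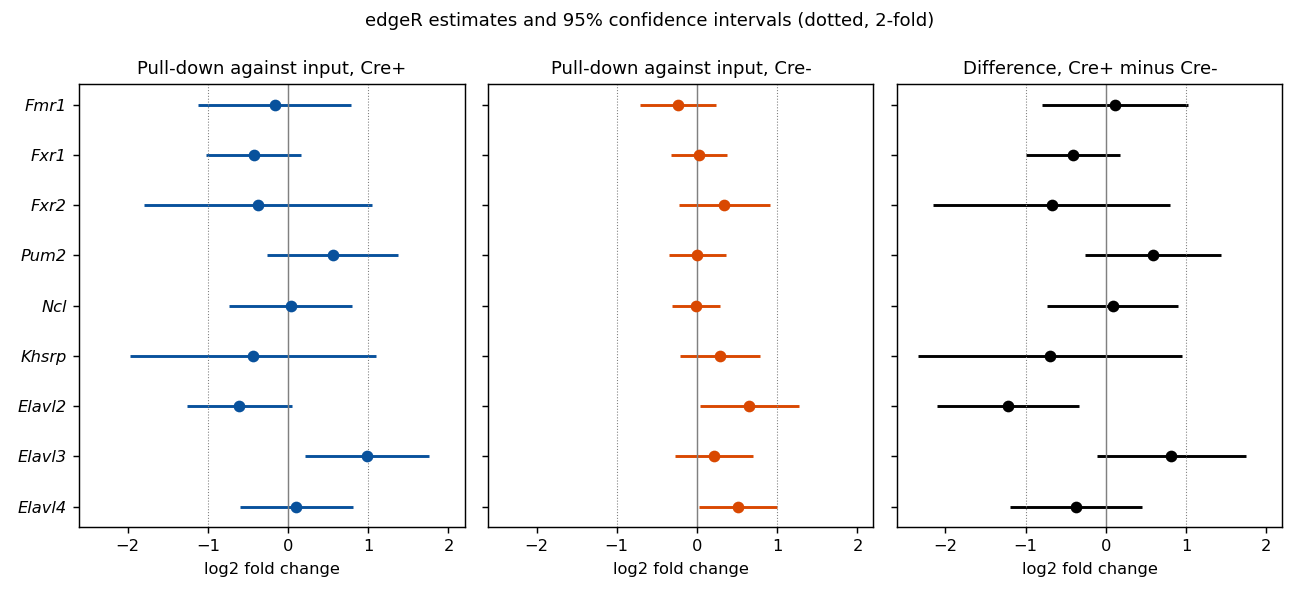
Log2 fold changes of the 9 genes with 95% confidence intervals from edgeR, for the pull-down relative to the input of each genotype and for the difference between the genotypes (dotted lines, a 2-fold change). The intervals of Elavl3 in Cre+, of Elavl2 and Elavl4 in Cre-, and of Elavl2 in the difference do not reach 0.

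The fragile X family comes first. Fmr1 (chrX:68678536-68717963), the gene of FMRP, a translational repressor lost in fragile X syndrome, stood at 55.0, 34.9 and 44.6 normalized counts in the Cre+ pull-downs and at 43.2, 50.6 and 56.9 in the inputs. In Cre- it stood at 36.7, 43.2 and 53.5 in the pull-downs and at 58.8, 45.1 and 53.9 in the inputs. Pull-downs and inputs overlapped in both genotypes, with log2 fold changes of -0.17 ± 0.42 (SE, n = 3 per group) in Cre+ and -0.24 ± 0.22 in Cre- (edgeR adjusted p = 0.848 and 0.483).

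Fxr1 (chr3:34020058-34069980), an FMRP paralogue that binds the same kinds of mRNA granule, stood at 141, 166 and 151 normalized counts in the Cre+ pull-downs and at 225, 184 and 206 in the inputs. Every Cre+ pull-down lay below every input, a pattern that 17.9% of all genes tested showed in this direction. The log2 fold change was -0.43 ± 0.27 (edgeR adjusted p = 0.352). In Cre- the pull-downs, at 217, 210 and 192, lay within the range of the inputs, at 227, 178 and 202, and the log2 fold change was 0.03 ± 0.16. Of 50-base stretches of its transcript, 5.06% also occur in transcripts of other genes, most of them in Dnajc19, which overlaps it on the opposite strand, and no source says that reads were counted by strand.

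Fxr2 (chr11:69632971-69653297), the other paralogue, was low in 1 library. It stood at 8.44, 41.8 and 34.5 normalized counts in the Cre+ pull-downs, where the first value rests on 76 counts, and at 42.7, 32.5 and 34.9 in the inputs. The highest of these pull-downs was 4.96 times the lowest, against 1.32 times among the inputs, and without the low library the log2 fold change moved from -0.38 to 0.10. In Cre- the pull-downs stood at 38.9, 43.0 and 42.6 and the inputs at 21.2, 41.0 and 35.9, a log2 fold change of 0.34 ± 0.26 (edgeR adjusted p = 0.403).

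Fxr1 held most of the family's level in all 4 groups. Of the summed per-length level of the 3 genes, Fxr1 made up 80.4% ± 1.05 (SD, n = 3) in Cre+ inputs and 78.9% ± 2.43 in Cre+ pull-downs, 80.1% ± 3.23 in Cre- inputs and 79.7% ± 2.69 in Cre- pull-downs. Fmr1 held 8.48% to 11.2% and Fxr2 9.68% to 11.8% as group means. Single libraries of the Cre+ pull-downs ran from 7.77% to 15.0% for Fmr1 and from 3.45% to 14.0% for Fxr2, and no difference between groups was tested.

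Pum2 (chr12:8674092-8752583) encodes a Pumilio protein, which represses mRNAs bearing the letters shown above and whose own mRNA holds 2 matches to them. It stood at 170, 146 and 225 normalized counts in the Cre+ pull-downs and at 78.7, 112 and 177 in the inputs. All 3 pull-downs lay above the mean input, and yet the groups overlapped through the highest input, and the log2 fold change was 0.56 ± 0.37 (edgeR adjusted p = 0.376). That value ran from 0.32 to 0.92 when 1 library was left out and was 0.11 when scaled by library size alone. In Cre- the pull-downs, at 122, 142 and 127, and the inputs, at 122, 123 and 144, shared one range, with a log2 fold change of 0.01 ± 0.16 and a 95% interval of -0.35 to 0.36.

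Ncl (chr1:86344719-86359455) encodes nucleolin, a nucleolar protein that also carries mRNAs in axons. It stood at 255, 544 and 487 normalized counts in the Cre+ pull-downs and at 302, 462 and 493 in the inputs, so the groups overlapped and the log2 fold change was 0.03 ± 0.34. In Cre- it was among the steadiest of the 9 genes, at 436, 461 and 509 in the pull-downs and 457, 483 and 475 in the inputs. Its log2 fold change there was -0.01 ± 0.14, and the 95% interval of -0.31 to 0.29 holds no change as large as 2-fold.

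Khsrp (chr17:57021049-57031507), whose protein binds AU-rich mRNAs and recruits the decay machinery, was the most scattered of the 9 genes in the Cre+ pull-downs. It stood at 82.7, 44.3 and 8.43 normalized counts there (745, 363 and 73 counts) and at 49.6, 72.3 and 61.3 in the inputs. The highest pull-down was 9.81 times the lowest, where the median gene tested differed by 2.97 times among these pull-downs and by 1.55 times among these inputs. The log2 fold change of -0.44 ± 0.69 (edgeR adjusted p = 0.733) became 0.08 without the lowest library. In Cre- the pull-downs stood at 70.6, 71.1 and 59.7 and the inputs at 38.4, 62.0 and 65.0, a log2 fold change of 0.28 ± 0.23 (edgeR adjusted p = 0.433).

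The neuronal Hu genes encode proteins that stabilize mRNAs such as that of the growth protein GAP-43. In the main fit, the 2 log2 fold changes of largest size among the 9 genes were those of Elavl3 and Elavl2 in Cre+ and of Elavl2 and Elavl4 in Cre-, while Elavl4 in Cre+ and Elavl3 in Cre- were not among the largest. That order depends on the scaling. By library size alone the 2 largest in Cre+ were Elavl2 (-1.04) and Khsrp (-0.92), with Elavl3 at 0.55. Over the settings in Cre-, Fmr1 reached -0.48 and Elavl2 came down to 0.41. Elavl3 (chr9:22015005-22052146, the gene of HuC) stood at 332, 389 and 648 normalized counts in the Cre+ pull-downs and at 157, 262 and 273 in the inputs. Every Cre+ pull-down lay above every input, as for 15.5% of all genes tested. The log2 fold change was 0.98 ± 0.34, with a 95% interval of 0.21 to 1.75, and it lay at the 79.9th percentile of all genes tested. It missed the threshold (edgeR adjusted p = 0.133), and across the alternatives its adjusted p ran from 0.0353 to 0.405. It was called by DESeq2, at 1.05 (adjusted p = 0.068), and by edgeR without Cre+ pull-down replicate 1, at 1.21 (adjusted p = 0.0484). Those fits called 1671 and 1390 of all 8947 genes, against 686 in the main fit. Part of the gene shares exon bases with Gm49318 on the same strand, 5.11% of them.

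In Cre- the Elavl3 pull-downs stood at 191, 322 and 353 normalized counts and the inputs at 211, 266 and 274. The lowest pull-down was below every input and the other pull-downs were above them. The log2 fold change was 0.21 ± 0.22 (edgeR adjusted p = 0.565).

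Elavl2 (chr4:91211533-91400108, the gene of HuB) showed the opposite order in the 2 genotypes. It stood at 109, 126 and 104 normalized counts in the Cre+ pull-downs and at 163, 148 and 205 in the inputs, every pull-down below every input. The log2 fold change there was -0.60 ± 0.29, with a 95% interval of -1.25 to 0.045 (edgeR adjusted p = 0.239). In Cre- the pull-downs stood at 140, 248 and 360 and the inputs at 138, 156 and 181. The lowest of these pull-downs lay among the inputs and the others above them, a log2 fold change of 0.65 ± 0.28 (edgeR adjusted p = 0.138), at the 85.1st percentile of all genes. That value was 0.31 without Cre- pull-down replicate 3, and it was 0.96 when replicate 1 of the same group was left out (edgeR adjusted p = 0.466 and 0.00186).

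Elavl4 (chr4:110203737-110351939, the gene of HuD, the Hu protein best known for binding Gap43 mRNA in axons) stood at 125, 111 and 178 normalized counts in the Cre+ pull-downs and at 124, 111 and 150 in the inputs. The groups overlapped, with a log2 fold change of 0.10 ± 0.32 (edgeR adjusted p = 0.874). In Cre- it stood at 139, 145 and 227 in the pull-downs and at 99.9, 115 and 143 in the inputs. There the pull-downs were all above the mean input and overlapped the highest input, with a log2 fold change of 0.52 ± 0.22 (edgeR adjusted p = 0.139). That value ran from 0.27 to 0.67 when 1 library was left out, and 0 of 6 such fits called it. Its lowest adjusted p was 0.0336 in edgeR, without Cre- pull-down replicate 1. Not overlapping at all was seen for 0 of the 9 genes in Cre-, beside 18.2% of all genes with every pull-down above and 18.6% with every pull-down below the inputs. In Cre+ it was seen for 1 gene above (Elavl3) and 2 below (Fxr1 and Elavl2), beside 15.5% and 17.9% of all genes.

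The neuron marker sum was higher in the Cre- pull-downs than in any other group, mostly through Nefl, Nefm and Snap25 and with Rbfox3, Tubb3 and Prph below 0, by the values given above, and its part in the Elavl2 and Elavl4 values of Cre- was not tested. In Cre+ the neuron sum of the pull-downs, 21910 to 24080, lay within that of the inputs, 20430 to 27150, while Tubb3 and Uchl1 of the list were called lower there, at -1.19 and -1.85 on the log2 scale (edgeR adjusted p = 0.0471 and 0.0373). For the difference between the labels, Uchl1 was called at -1.95 and Snap25 at -1.76 (edgeR adjusted p = 0.0206 and 0.0189). Rbfox3 of the same list was called the other way, at 1.02 (edgeR adjusted p = 0.0724), a call that other settings lost, as given below.

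Because Elavl2 and Elavl3 were read from the same libraries, their balance does not depend on how libraries are scaled. The count ratio of Elavl3 to Elavl2 was 3.04, 3.08 and 6.22 in the Cre+ pull-downs and 0.960, 1.77 and 1.33 in the inputs. Every Cre+ pull-down exceeded every input, by 1.56 on the log2 scale between the means. In Cre- the ratio was 1.37, 1.30 and 0.981 in the pull-downs and 1.53, 1.70 and 1.52 in the inputs. Every Cre- pull-down was below every input, a difference of -0.39 on the log2 scale.

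Set per length, Elavl3 made up 31.4% ± 6.55 (SD, n = 3) of the summed level of the 3 neuronal Hu genes in Cre+ inputs and 51.9% ± 6.52 in Cre+ pull-downs. Elavl2 went from 43.2% ± 4.00 to 25.0% ± 6.64 in the same libraries, while Elavl4 stood at 25.4% ± 2.57 and 23.0% ± 2.38. In Cre- the share of Elavl3 was 41.4% ± 1.83 in inputs and 35.3% ± 3.53 in pull-downs, and that of Elavl2 was 34.5% ± 0.817 and 38.6% ± 4.65. These shares were split from a mean deposited for each genotype, so they compare fractions within a genotype and not the genotypes. In the inputs they put Elavl2 above Elavl3 in Cre+ and below it in Cre-. The mean normalized counts of the inputs put Elavl3 above Elavl2 in both, at 231 and 172 in Cre+ and 250 and 158 in Cre-. With Elavl4 in place of Elavl2, the log2 ratio was higher in the Cre+ pull-downs by 0.88 and differed by -0.33 in Cre-. The pair was picked after its values were seen, so these ratios are a description. An exact permutation test of 3 against 3 libraries cannot go below p = 0.1 and adds nothing to them.

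**Figure D3:**
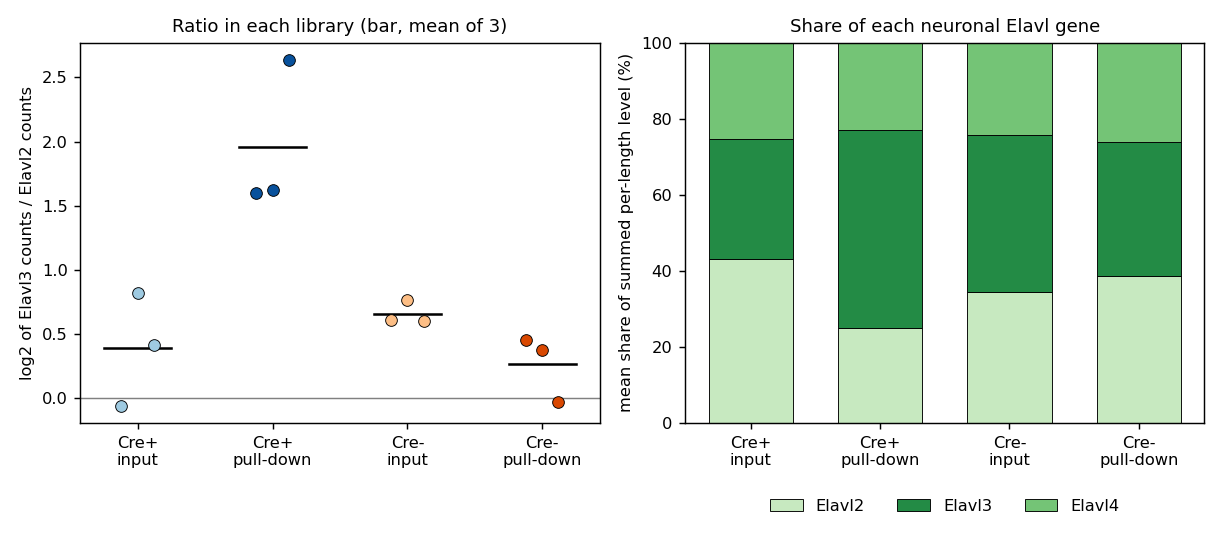
Left, log2 of the count ratio of Elavl3 to Elavl2 in each of the 12 libraries, with the mean of each group of 3 as a bar. Right, mean share (%) of Elavl2, Elavl3 and Elavl4 in their summed per-length level by group, to be compared within a genotype only. Elavl3 holds 51.9% in the Cre+ pull-downs and 31.4% in the Cre+ inputs, and 35.3% and 41.4% in those of Cre-.

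The second question was whether the ratio of pull-down to input differed between the labels. In the fit of all 12 libraries 0 of 9 genes were called for the difference (Cre+ minus Cre-), where 4.19% of 8954 genes were called. At an unadjusted p below 0.05 it was 1 of 9, Elavl2, beside 19.5% of all genes, and DESeq2 called 1 gene, also Elavl2. The Elavl2 difference was -1.22 ± 0.41 on the log2 scale, with a 95% interval of -2.11 to -0.33 (adjusted p = 0.142 in edgeR's quasi-likelihood test, 0.0106 unadjusted). It was called by DESeq2 at -1.19 (adjusted p = 0.0835), and by edgeR at -1.19, -1.32 and -1.52 when Cre+ pull-down replicate 1, Cre+ pull-down replicate 2 or Cre- pull-down replicate 1 was left out. Over all 8954 genes these fits called 1040, 1248, 1418 and 376, in that order, against 375 in the main fit. The Elavl2 difference was not called in the other 9 of 12 fits that left out 1 library, where it came down to -0.86 without Cre- pull-down replicate 3 (edgeR adjusted p = 0.347). That of Elavl3 was 0.81 ± 0.43 (adjusted p = 0.317), that of Pum2 0.59 ± 0.40 (adjusted p = 0.43), and the median over the 9 genes was -0.37, against 0.13 over all genes tested.

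The same libraries were also compared directly. Between the pull-downs of both labels 0 of 9 genes were called (2.69% of all genes), and 1 gene was under an unadjusted p of 0.05 (Elavl2, beside 19.6% of all genes). DESeq2 and the exact test called 0 of 9, beside 1219 and 740 of all 8954 genes. Elavl2 was lower in the Cre+ pull-downs by a log2 difference of -1.05 ± 0.36 (edgeR adjusted p = 0.164), and Elavl3 differed by 0.74 ± 0.33 (adjusted p = 0.26). Between the inputs 0 of 9 genes were called and 0 of 9 were under an unadjusted p of 0.05, where 0% and 2.02% of all genes were. DESeq2 and the exact test also called 0 of 9, beside 1 gene each over all 8954. The input differences of the 9 genes ran from -0.10 (Ncl) to 0.24 (Fxr2), and the farthest bound of their 95% intervals was 0.85 in size.

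The values of the 9 genes stood among other regulators of the same pathways, counted by list and read against the shares of all genes given above. Of 15 mRNA transport and granule genes tested in each genotype, 1 was called higher in both, beside 5.17% and 6.06% of all genes. It was Igf2bp3, an mRNA-binding protein of growing cells. It rose by 2.66 ± 0.79 on the log2 scale in the Cre+ pull-downs (edgeR adjusted p = 0.0991), which spread widely at 63.4 ± 66.0 normalized counts (SD), and by 1.29 ± 0.29 in Cre- (adjusted p = 0.0114), a call lost in the fit of all 12 libraries (1.26, adjusted p = 0.332). That fit called 439 of 8954 genes in Cre-, against 1382 of 11526 in the main fit. The Cre+ call of Igf2bp3 was lost under 5 other settings of the fit and without any 1 of the Cre+ inputs or Cre+ pull-down replicate 3 (1.38 without the last). Without any 1 of the Cre+ inputs no gene at all was called, so those fits could not keep this call. The list's median was -0.43 in Cre+ and 0.06 in Cre-, beside 0.08 and -0.04 over all genes.

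Of the FMRP partners and stress granule genes, 0 of 10 were called in Cre+ and 0 of 12 in Cre-, with 1 and 4 under an unadjusted p of 0.05, beside 7.67% and 12% of all genes called and 23.7% and 31.1% under that p. The smallest p in Cre+ belonged to Caprin1, a granule partner of FMRP, at -0.81 ± 0.29 (adjusted p = 0.141), followed by Atxn2 at 0.43 ± 0.25. In Cre- it belonged to the helicase gene Ddx3x, at 0.86 ± 0.15 (edgeR adjusted p = 0.00284), followed by Atxn2 at 0.58 ± 0.14 (adjusted p = 0.0145), both under the 2-fold limit.

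Among the CPE-binding, Pumilio and SMAUG repressors, 1 of 8 rose in Cre+ and 0 of 9 in Cre- were called, with 4 and 3 under an unadjusted p of 0.05 (all genes as in the last list). The riser was Samd4b, a SMAUG repressor, from 157 ± 6.57 to 357 ± 38.1 normalized counts, a log2 change of 1.19 ± 0.25 (edgeR adjusted p = 0.0505). The call was lost when scaled by upper quartile (0.99) or library size alone (0.75). It was also lost without any 1 of the Cre+ inputs (edgeR adjusted p = 0.207, 0.192 and 0.205), where no gene at all was called. In Cre- the log2 change of Samd4b was -0.26 ± 0.17, and the difference of 1.48 ± 0.27 between the labels was called (edgeR adjusted p = 0.0206). In Cre- the smallest p belonged to the CPE-binding genes Cpeb4, at 0.71 ± 0.16, Cpeb3, at 0.81 ± 0.20, and Cpeb2, at 0.90 ± 0.26 (edgeR adjusted p = 0.0119, 0.0185 and 0.038), all under the 2-fold limit. All 8 log2 fold changes of this list were above 0 in Cre+, with a median of 0.60, and 4 of 9 were in Cre-, with a median of -0.0047, where the medians over all genes tested were 0.08 and -0.04. The difference between the genotypes was tested gene by gene only, with 1 of 8 called, beside 4.19% of all genes.

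Of the other 3' end stability and splicing regulators, 1 of 18 rose in Cre+, the neuronal splicing factor Nova2, by 2.03 ± 0.41 (edgeR adjusted p = 0.0468), beside 5.17% of all genes called higher. This call was lost without any 1 of the Cre+ inputs (edgeR adjusted p = 0.22, 0.181 and 0.165), where no gene at all was called. In Cre- 1 of 20 rose, Nova1, by 1.44 ± 0.42, and 2 fell, Celf3 by 1.18 and Celf6 by 1.26 on the log2 scale (adjusted p = 0.0392, 0.0267 and 0.0257), beside 12% of all genes called in either direction. The calls of Nova1 (1.22) and Celf3 (-0.98) were lost without Cre- pull-down replicate 3, as was that of Celf6 (-0.97), and those of Nova1 and Celf3 also without Cre- input replicate 1 (1.22 and -0.94). In the fit of all 12 libraries the calls of Nova1, Celf3 and Celf6 were all lost, at 1.42, -1.21 and -1.29 (edgeR adjusted p = 0.321, 0.27 and 0.227). That fit called fewer genes in Cre- over the whole set, 439 of 8954 against 1382 of 11526 in the main fit. For the difference between the labels 1 of 19 was called, beside 4.19% of all genes: Rbfox3, which also serves as a neuron marker, at 1.02 ± 0.26 (adjusted p = 0.0724), a call lost under upper-quartile scaling (0.86) and library size alone (0.79) and under 9 of the 12 ways to leave out 1 library. Nova1 is listed in Cre+ but was not tested there, because its mean FPKM did not exceed 1.

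Of the listed mRNAs that these proteins are known to bind, 1 was called higher and 4 lower in Cre-, and 1 higher and 0 lower in Cre+. Of 13 axonal and synaptic target mRNAs tested in Cre+, 1 rose, Map1b, a cytoskeletal mRNA bound by FMRP, by 2.74 ± 0.32 (edgeR adjusted p = 0.019). Map1b went from 17490 ± 4320 to 116800 ± 30340 normalized counts (SD, n = 3) in the Cre+ libraries. Its call was lost without any 1 of the Cre+ inputs (2.55, 2.83 and 2.86, edgeR adjusted p = 0.131, 0.106 and 0.139), where no gene at all was called. All genes were called higher at 5.17% in Cre+ and at 6.06% in Cre-, and lower at 2.49% and 5.93%. In Cre- Map1b rose by 1.67 ± 0.24, and 4 of 14 fell: Gap43, a Hu target, by 1.75, Nrn1 by 1.49, Marcks by 1.32 and Camk2a by 1.12 on the log2 scale (adjusted p = 0.000256, 0.00104, 0.00104 and 0.0883). DESeq2 did not call Camk2a (adjusted p = 0.2), and its call was lost in 5 of 6 fits that left out 1 library. It was also lost in the fit of all 12 libraries (-1.15, edgeR adjusted p = 0.172), which called 439 genes in Cre- against 1382 in the main fit. Gap43 went from 626 ± 107 to 186 ± 37.3 normalized counts (SD, n = 3) in the Cre- libraries. The list's median was -0.04 in Cre+ and -0.44 in Cre-, beside 0.08 and -0.04 over all genes.

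**Figure D4:**
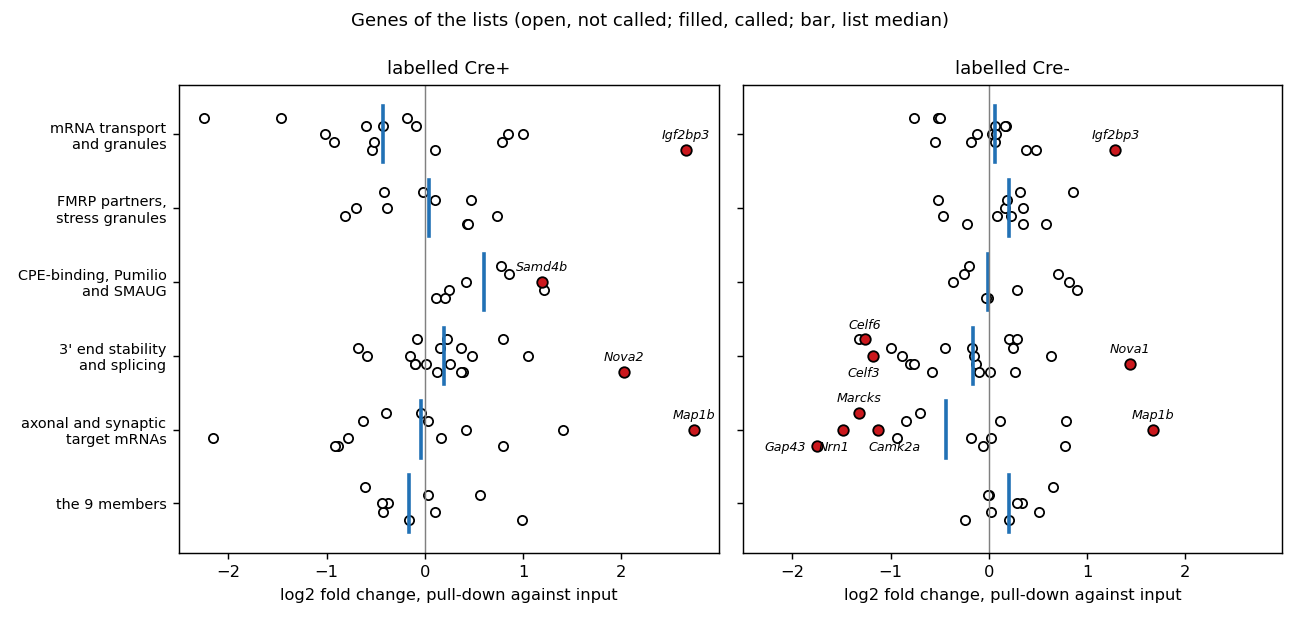
Log2 fold changes of pull-down against input for the genes of 5 lists and the 9 genes described here, in each genotype, with called genes filled and named and the median of each list as a bar. None of the 9 genes in the bottom row is filled, and Map1b and Igf2bp3 are filled in both panels.

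Over the 12 libraries, which share 4 groups and the group differences given above, each gene's log2 normalized counts were compared with those of the 8945 other genes. The most alike gene was Tmem170b for Elavl3 (Pearson r = 0.974), Cul4a for Khsrp (0.963), 9530082P21Rik for Fxr2 (0.959) and Cbfb for Elavl2 (0.951). It was Bdh1 for Fxr1 (0.934), Prdm4 for Pum2 (0.903), 1600002H07Rik for Fmr1 (0.901) and Cpeb2, a CPE-binding regulator of translation, for Elavl4 (0.88). These are the highest of many correlations and are given as a description.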

How the data were processed

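The authors aligned reads to mm10 with STAR, counted uniquely mapped reads per refSeq gene with HTSeq, and deposited for each genotype the raw counts of every library with the mean FPKM over its libraries (CASAVA 1.8.2 and edgeR are named in the submitters' processing notes). No gene of the Cre+ table is under 5 counts in any library. The deposited log2 fold changes, p-values and FDR of the authors, and 18 per-sample columns of normalized values and ratios, were not used. The pull-down columns of the Cre+ table match, punctuation aside, the titles given to Cre- pull-downs, so they were assigned as a group, and their numbers only tell libraries apart.

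Where the mean FPKM exceeded 1, a gene's counts were tested with edgeR 4.0.16 in R 4.3.3 (TMM, glmQLFit, glmQLFTest), on the 6 libraries of a genotype, on all 12 for the difference, or on the 6 inputs or 6 pull-downs. Calls needed an FDR below 0.1 and a 2-fold change. The SE is the log2 fold change divided by the square root of F. Normalized counts are counts scaled to 1000000 after TMM, and the deposited mean FPKM was split over libraries by them. Alternatives were DESeq2 1.42.0, other scalings, filters and tests, a replicate block and each library left out. Scripts were tested on simulated data. Transcripts came from GENCODE M21 and gene positions from RefSeq, both on GRCm38. Figures were drawn with matplotlib 3.10.9.

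The members and lists were chosen with earlier results of these data known. The text names all 9 members, the genes of the lists that were called or, where a genotype had none, had the 2 smallest p (3 for the CPE-binding list), the 1 gene most alike to each member (that of Ncl, like some glia markers, is not reported here), Runx3 and Rpl22, and, chosen after their values were seen, markers that carry or go against a marker sum. Reads carry no molecular identifiers, so counting limits understate the error, and the labels name no batch. The methods say that all samples were pooled for sequencing over several lanes, without naming the lane of any library.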

Additional observations from a re-analysis of the deposited data

Results flagged for a closer look

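The log2 ratio of Elavl3 to Elavl2 counts went opposite ways under the 2 labels, for a pair picked after its values were seen: it was higher in the pull-downs than in the inputs by 1.56 in Cre+ and differed by -0.39 in Cre-, with every pull-down above every input in the first and below every input in the second. This difference between the labels was not tested. Samd4b was called for the difference in enrichment between the labels, at 1.48 on the log2 scale (edgeR's quasi-likelihood test, adjusted p = 0.0206). Rbfox3 was called for the same difference, at 1.02 (adjusted p = 0.0724). The Rbfox3 call was lost under upper-quartile scaling, by library size alone and in 9 of 12 fits that left out 1 library. That of Samd4b was lost in 0 of 12 such fits. The groups held 3 libraries each, too few to look for single outlying libraries.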

How the results depend on the processing

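The count of members called was 0 in all 5 comparisons and stayed 0 under most alternatives. DESeq2 and scaling by library size alone each gave 1 in Cre+ (Elavl3 by DESeq2, Elavl2 by library size) and 1 for the difference between the labels (Elavl2 in both), and a fit of all 12 libraries gave 1 between the pull-downs (Elavl2, at -1.03). Leaving out 1 library gave 0 to 1 in Cre+ and 0 to 1 for the difference. The log2 ratio of Elavl3 to Elavl2 was 1.22 to 1.78 in Cre+ and -0.48 to -0.24 in Cre- when 1 library was left out, and 0.88 in Cre+ with Elavl4 in place of Elavl2, an alternative added after the values were seen, as was a robust dispersion estimate. Scaling by library size alone moved the median log2 fold change of all genes from 0.08 to -0.36 in Cre+ and from -0.04 to -0.27 in Cre-, and upper-quartile scaling moved it to -0.12 in Cre+.

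Signs turned for the following members. By upper-quartile scaling and library size alone, Elavl4 in Cre+ became -0.094 and -0.34, Ncl in Cre+ -0.13 and -0.38, Fxr1 in Cre- -0.0035 and -0.21, and Pum2 in Cre- -0.023 and -0.23. By the same settings the difference between the labels became -0.085 and -0.14 for Fmr1 and -0.066 and -0.13 for Ncl, and between the pull-downs -0.075 and -0.12 for Fmr1. Elavl3 in Cre- became -0.038 by library size alone. Pum2 in Cre- became -0.0018 with no filter, -0.0047 with at least 10 counts in 3 libraries and -0.020 in a fit of all 12 libraries, and Ncl by DESeq2 became 0.014 in Cre- and 0.015 between the pull-downs. Leaving out 1 library, the value in Cre+ ran from -0.30 to 0.0073 for Fmr1, -0.74 to 0.095 for Fxr2, -0.095 to 0.26 for Elavl4, -1.17 to 0.076 for Khsrp and -0.16 to 0.34 for Ncl. In Cre- it ran from -0.059 to 0.12 for Fxr1, -0.058 to 0.087 for Pum2 and -0.059 to 0.058 for Ncl. For the difference it ran from -0.048 to 0.27 for Fmr1 and -0.13 to 0.36 for Ncl. Between the inputs it ran from -0.096 to 0.10 for Fmr1, -0.35 to 0.23 for Pum2, -0.16 to 0.17 for Elavl3 and -0.21 to 0.090 for Ncl. Between the pull-downs it ran from -0.072 to 0.26 for Fmr1, -0.44 to 0.041 for Elavl4, -1.25 to 0.0060 for Khsrp and -0.24 to 0.23 for Ncl. The cause was not tested.

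Over all genes the counts called moved by over 1.5 times. In Cre+ they were 686, against 1671 by DESeq2, 1243 by the exact test, 2215 in a fit of all 12 libraries, and 0 to 1390 with 1 library left out. In Cre- they were 1382, against 439 in a fit of all 12 libraries. For the difference they were 375, against 1040 by DESeq2 and 41 to 1418 with 1 library left out, and between the pull-downs 241, against 1219 by DESeq2, 740 by the exact test, 1622 in a fit of all 12 libraries and 15 to 1132 with 1 library left out. Higher and lower calls in Cre+ were 463 and 223, against 247 and 271 by upper-quartile scaling and 195 and 713 by library size alone. In Cre- they were 698 and 684, against 433 and 1249 by library size alone. By upper-quartile scaling and library size alone, the difference went from 200 and 175 to 88 and 208 and to 75 and 278, and the pull-downs from 112 and 129 to 76 and 175 and to 68 and 212 (774 and 445 by DESeq2).

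With the replicate number as a block, 0 members were called in Cre- and 0 between the inputs, and 1446 genes in all in Cre-. Libraries of the same number in Cre- correlated at 0.0674, 0.0284 and 0.124 in their deviations from the group means, too low in 2 of the 3 pairs for the numbers to be taken as pairing them. Every library did correlate best with its own number (from -0.11 to 0.0248 with the others), a hint from the data and not from the design. No block could be fitted to the Cre+ pull-downs, whose columns carry no sample of their own. The Cre+ pull-downs limit what can be seen: the 95% intervals there reach from 0.80 to 1.97 at their farther ends, against 0.31 to 1.27 in Cre-.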

Other observations

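Over all genes tested, those with the Pumilio letters in the 3' UTR had higher log2 fold changes at the median than those without. The medians were 0.31 for 2530 genes with the letters and -0.05 for the rest of 8355 genes in Cre+, and 0.09 for 2922 and -0.08 for the rest of 10613 in Cre-. With and without the AU-rich letters the Cre+ medians were 0.28 and -0.04, and those of Cre- 0.05 and -0.07. Genes with the Pumilio letters also had longer 3' UTRs, with medians of 2292 and 983 bases in Cre+, and the parts of letters and length in these medians were not tested. Of the 5 members with the Pumilio letters, Pum2, Elavl4 and Ncl were above 0 in Cre+, and Fmr1 and Elavl2 below. In Cre- Pum2, Elavl2 and Elavl4 were above 0, and Fmr1 and Ncl below. The signs of Fmr1, Elavl4 and Ncl in Cre+, and of Pum2 and Ncl in Cre-, turned under some of the settings given above. Rpl22, the tagged gene, stood at 43.4, 26.2 and 35.6 normalized counts in the Cre+ pull-downs and 98.0, 44.4 and 51.8 in the inputs, and at 26.3, 18.0 and 17.6 against 60.3, 52.8 and 47.9 in Cre-.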
